A study of Mus musculus with 79 samples.

Results

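Neuro-mesodermal progenitors lie at the tail end of the elongating embryo and supply cells to the spinal cord as well as to the paraxial mesoderm. They are recognised by joint expression of T (Brachyury), a T-box factor of the primitive streak and early mesoderm, and Sox2, an HMG-box factor of neural and progenitor cells. Caudal Wnt and Fgf signals sustain them, Cdx and Hox factors give them their position along the axis, and Cyp26a1 clears retinoic acid from the tail end. Single cells of this kind were described here by the genes detected in them, the level of each gene and its spread from cell to cell.

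The members were all 53 columns of the deposited single-cell table, which are 53 of the 79 samples of the series, and no cell was chosen or left out by a measured value. They were T+ Sox2+ cells sorted by flow cytometry from the caudal ends of wild-type (WT) embryos of strain C57BL/6N at Theiler stage 13 (TS13). All embryos were made from embryonic stem cells by tetraploid complementation, so the embryo proper comes from the stem cells. Embryo tissue was pooled before dissociation with trypsin. How many embryos were pooled, which stem cell line lies behind each cell and how T and Sox2 were marked for the sort was not found in the labels. Cells were captured on a Fluidigm C1 chip, in which each cell is lysed and its polyadenylated RNA amplified in its own chamber. The protocol counted 55 capture sites with cells by eye, and the table holds 53. No embryo, litter or culture is named for a cell, so the 53 cells count as 1 sample, and all shares, ranges and correlations over cells are given without a test. A pair of bulk libraries of the same strain were set beside the cells: T+ Sox2+ cells of WT embryos at TS12, and T+ cells of WT embryos at TS13, 1 library each.

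Levels were given as FPKM, a fragment count scaled to transcript length and to the library's mapped total, and a gene was called detected in a cell at 1 FPKM or more. Intervals beside shares are exact (Clopper-Pearson) 95% binomial intervals and cover the counting of cells only. The sequencing depth of each cell is unknown. Between 4013 and 8866 genes were detected per cell, with a median of 5809, out of 21611 gene symbols kept. No pair of cells had identical values, and the median correlation of a cell with the others (r of log2(FPKM + 1) across 7645 genes) ran from 0.446 to 0.592. Cells are named by the numbers in their labels, 1 to 47 and 90 to 95. The number of genes detected differed along these numbers: its median was 5268 in cells 1 to 9, 5557 in cells 10 to 19, 5951 in cells 20 to 29, 6490 in cells 30 to 39, 7726 in cells 40 to 47 and 4997 in cells 90 to 95. The labels do not say what the numbers stand for. The 6 cells numbered 90 to 95 stood apart in the genes described further on. Some results that rest on them, such as the joint detection of Mt1 and Mt2, are given with and without them. The principal components and the correlations of list scores are given for all cells together only.

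Both genes of the sort were present as RNA in most cells. T was detected in all 53 cells (100%, interval 93.3 to 100%), with a lowest value of 35.7 FPKM, a median of 311 and a highest of 888. Sox2 was detected in 46 of the 53 cells (86.8%, interval 74.7 to 94.5%), with a lowest value of 0, a median of 21.2 and a highest of 77.4 FPKM. Every cell held T RNA, while 7 cells lay below the detection limit for Sox2. Of those 7, cell 18 was at 0.791 FPKM and cell 90 at 0.919 FPKM, and cells 3, 7, 21, 36 and 93 were listed at 0. T in these 7 cells ran from 160 to 736 FPKM, inside the range of the other cells. Sox2 was detected in 42 of the 47 cells numbered 1 to 47 and in 4 of the 6 cells numbered 90 to 95.

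The other 4 genes that mark these progenitors were each detected in 50 or more cells. Fgf8, the main Fgf ligand of the tail end, was detected in all 53 cells, from 12.3 to 458 FPKM with a median of 128. Cyp26a1, the enzyme that oxidises retinoic acid, was detected in 52 cells, from 0 to 761 FPKM with a median of 169. Cdx4, a caudal-type homeobox factor, was detected in 51 cells, from 0 to 773 FPKM with a median of 93.4. Wnt3a, the canonical Wnt ligand of the streak and tail bud, was detected in 50 cells, from 0 to 142 FPKM with a median of 27.8. All 6 markers were detected together in 41 cells, 5 of them in 11 cells and 4 of them in 1 cell. T and Sox2 were the genes of the sort, so these counts are no separate check of the label. For comparison, the median gene at 20 to 50 FPKM in the bulk T+ Sox2+ library was detected in 81.1% of cells. This share was 96.2% at 50 to 100 FPKM and 100% above 100 FPKM. In that library Wnt3a stood at 38.2, Fgf8 at 78.8, Cyp26a1 at 184 and Cdx4 at 225 FPKM. On the FPKM scale, which is per length, the medians ran from T through Cyp26a1, Fgf8, Cdx4 and Wnt3a down to Sox2. The ranges of neighbours in that order overlapped widely over the cells.

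**Figure D1:**
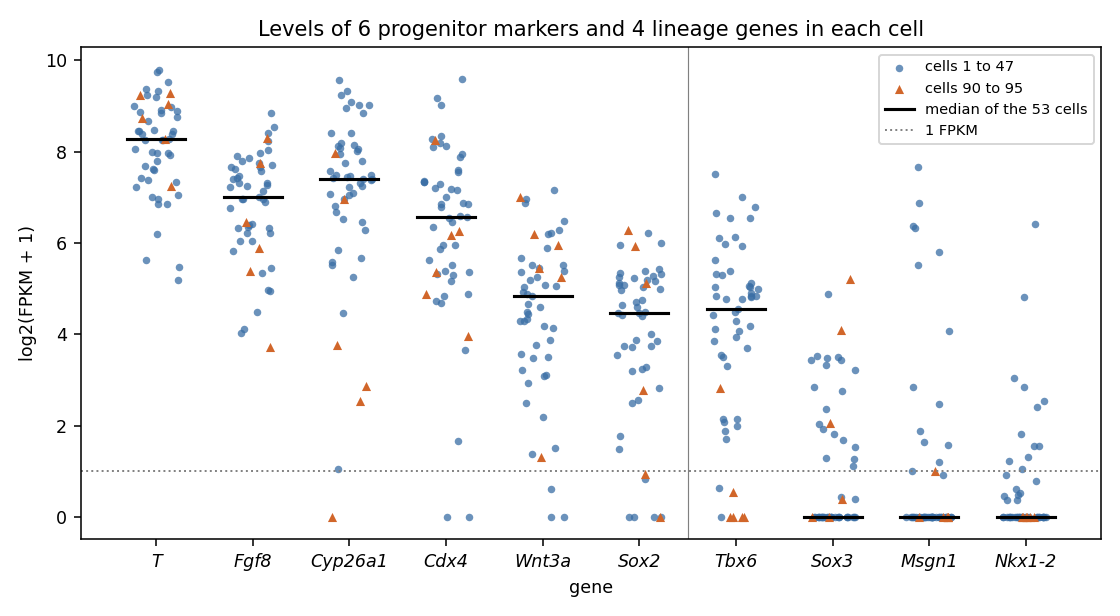
Level of 10 genes in each of the 53 cells, as log2(FPKM + 1) on the vertical axis, with 1 point per cell; circles are cells 1 to 47, triangles cells 90 to 95, black lines the median over the 53 cells and the dotted line 1 FPKM, and points are spread sideways at random. T and Fgf8 lie above 1 FPKM in all cells, Sox2 in 46, and Sox3, Msgn1 and Nkx1-2 have medians of 0.

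The levels of the 6 markers were only loosely related over the cells. Among the 15 pairs, the rank correlation over 53 cells ran from -0.216 for Fgf8 with Wnt3a to 0.277 for T with Fgf8. T and Sox2 had r = -0.23 on the log2(FPKM + 1) scale and a rank correlation of -0.148. With the 2 cells farthest from the median of T left out, r was -0.15. For comparison, the middle 90% of all pairs among 7645 genes had rank correlations between -0.217 and 0.267, and 14 of the 15 marker pairs lay within that range while T with Fgf8 lay just above it. These correlations are over cells of 1 sample that share library preparation and differ in the number of genes detected.

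Of 22 genes listed for axial progenitors, 17 were detected in 27 or more cells, beside 27% of all kept genes, and 3 were detected in every cell. The list holds the 6 markers given above, and of its 16 other genes 11 were detected in 27 or more cells, beside 69.2% of genes with at least 5 FPKM in the bulk T+ Sox2+ library. All 22 were detected in at least 1 cell, beside 61.4% of all kept genes. A single cell held between 9 and 22 of them, with a median of 17. Among the ligands of the list, Wnt5b, a non-canonical Wnt, was detected in 51 cells with a median of 85.6 FPKM, and Fgf17, a close relative of Fgf8, in 45 cells with a median of 25.4 FPKM. Fgf4 was detected in 34 cells and Fgf3 in 32, while Wnt8a, a ligand of the early streak, was detected in 7. Fgf8 alone made up 50.4% of the summed mean FPKM of 10 Fgf ligand genes, and Wnt5b made up 42.3% of that of 12 Wnt ligand genes.

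Genes of the list other than ligands split into frequent and rare members. Greb1, first known as an oestrogen-regulated gene, was detected in all 53 cells with a lowest value of 40.9 FPKM and a median of 92.7. Evx1, a homeobox factor of the streak, was detected in 52 cells with a median of 50.9 FPKM. Sp5 and Sp8, zinc finger factors downstream of Wnt, were detected in 46 and 44 cells. Nkx1-2, a homeobox factor used as a marker of the caudal lateral epiblast, was detected in 12 of 53 cells (22.6%, interval 12.3 to 36.2%) and reached 84.1 FPKM. Hes3 was detected in 17 cells and Grhl3 in 18.

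The 3 caudal genes differed. Cdx1 was detected in 45 cells with a mean of 67.3 FPKM, Cdx4 in 51 with a mean of 140, and Cdx2 in 25 with a mean of 4.68. In the bulk T+ Sox2+ library of TS12 the same genes stood at 2.97, 225 and 108 FPKM, and in the bulk T+ library of TS13 at 12.4, 151 and 68.0 FPKM. The order of Cdx1 and Cdx2 in the cells was thus opposite to that in both bulk libraries. Cells and bulk libraries were made with different kits and normalised separately, so no fold was computed between them, and in bulk RNA fewer cells of a type and less RNA per cell cannot be told apart.

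Genes of the mesodermal branch were present beside the progenitor genes in an uneven way. Of 23 genes listed for presomitic and paraxial mesoderm, 10 were detected in 27 or more cells, beside 27% of all kept genes. Another 6 were detected in none, beside 38.6% of all kept genes. Dll1, a Notch ligand of the presomitic mesoderm, was detected in all 53 cells with a median of 36.9 FPKM. Rspo3, an enhancer of Wnt signalling, was detected in all 53 cells with a median of 220 FPKM. Cited1, a transcriptional cofactor, was also detected in all 53 cells, from 106 to 1494 FPKM, and its median of 839 FPKM was the highest of the list. Dll3 was detected in 51 cells and the oscillating repressor Hes7 in 49.

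Tbx6, the T-box factor that commits cells to paraxial mesoderm, was detected in 46 cells (86.8%), from 0 to 181 FPKM with a median of 22.4. Msgn1, a helix-loop-helix factor directly downstream of Wnt and Tbx6 in presomitic mesoderm, was detected in 15 cells (28.3%, interval 16.8 to 42.3%), with a median of 0 and a highest value of 202 FPKM. Mesp2, Ripply1, Uncx, Pcdh8, Meox2 and Cer1, genes of segmenting mesoderm, somites or anterior mesendoderm, were below 1 FPKM in every cell (0%, interval 0 to 6.72% of cells). The presomitic list thus ran from genes in every cell to genes in none.

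Of 18 listed neural genes, 2 were detected in 27 or more cells, beside 27% of all kept genes: the adhesion molecule Ncam1 in 50 and the forkhead factor Foxb1 in 44. Nes (nestin), an intermediate filament of neural progenitors, was detected in 26 cells, and Hes5, a Notch target of neural progenitors, in 25. Sox3, a SoxB1 factor like Sox2, was detected in 22 cells (41.5%, interval 28.1 to 55.9%), with a highest value of 36.1 FPKM. Sox1, the SoxB1 factor of the committed neural plate, was detected in 5, and Pax6 in 11. Olig2, Olig3 and Msi1 were below 1 FPKM in every cell. In the bulk T+ Sox2+ library Olig2 and Olig3 stood at 0.0352 and 0.436 FPKM, but Msi1 stood at 73.1 FPKM. Msi1 stood at 23.8 FPKM in the bulk T+ library of TS13, so its low values in the cells may be a gap in detection, which was not tested. A single cell held between 2 and 8 of the 18 neural genes and between 5 and 14 of the 23 presomitic genes.

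Neural and mesodermal genes were detected in the same cells, and the counts are given beside the number that independent shares would give. Sox2 and Tbx6 were detected together in 41 cells, beside 39.9 for independent detection. Sox3 and Tbx6 were detected together in 18 cells, beside 19.1. Sox3 and Msgn1 were detected together in 7 cells, beside 6.23, and Tbx6 and Msgn1 in 14, beside 13.0. Nkx1-2 and Msgn1 shared 6 cells, beside 3.40, and Nkx1-2 and Sox3 shared 8, beside 4.98. Each of the 14 pairs compared had cells that held both genes. Where the genes were in most cells the shares alone force this, as for T with Sox2, T with Tbx6 and Sox2 with Tbx6. The epithelial cadherin Cdh1 was detected in 18 cells and the mesenchymal cadherin Cdh2 in 52.

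Receptors, effectors and targets of the Fgf and Wnt pathways were detected beside their ligands. Of 11 Fgf feedback and target genes, 9 were detected in 27 or more cells, beside 27% of all kept genes and 69.2% of genes with at least 5 FPKM in the bulk T+ Sox2+ library. Etv5, an Ets factor induced by Fgf, was detected in all 53 cells with a median of 53.8 FPKM, and Dusp6, a phosphatase of the same feedback, in 49 with a median of 59.8 FPKM. The receptor Fgfr1 was detected in 50 cells, while Fgfr2 was detected in 2, Fgfr3 in 8 and Fgfr4 in none. Of 19 Wnt effectors and targets, 13 were detected in 27 or more cells, a share close to that 69.2%. Ctnnb1 (beta-catenin), its partner Lef1 and the target Ccnd1 were detected in all 53 cells with medians of 287, 102 and 114 FPKM. Tcf7 was detected in 23 cells and the Wnt target Axin2 in 51.

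Of the enzymes that make retinoic acid, Aldh1a2 and Rdh10 were detected in 18 cells each, and Aldh1a1 and Aldh1a3 in none. Of those that break it down, Cyp26a1 was detected in 52 cells as given above. Cyp26b1 was detected in no cell and Cyp26c1 in 8. The binding protein Crabp1 was detected in all 53 cells and Crabp2 in 49. Among receptors, Rarg was detected in 46 cells, Rara in 23 and Rarb in 2. Of the Bmp targets, Id1 and Id2 were detected in all 53 cells and Id3 in 52, with medians of 242, 166 and 412 FPKM.

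Detection of Hox genes dropped at a set place along the clusters. The 4 clusters hold genes numbered 1 to 13 from their 3′ to their 5′ end, and lower numbers act in more anterior structures. Of 27 Hox genes numbered 1 to 9, 24 were detected in 27 or more cells, with a median of 46 cells per gene. Beside this stood 27% of all kept genes and 69.2% of genes with at least 5 FPKM in the bulk T+ Sox2+ library. In that library the 27 genes ran from 13.6 to 164 FPKM with a median of 33.1. Of 12 genes numbered 10 to 13, 0 were detected in 27 or more cells. Of these 12, 6 were in no cell, beside 38.6% of all kept genes, and the most frequent, Hoxa10, was in 14. The limit fell between groups 9 and 10 in the A, C and D clusters. Hoxa9 was detected in 52 cells and Hoxa10 in 14, Hoxc9 in 47 and Hoxc10 in 6, and Hoxd9 in 40 and Hoxd10 in 6. Below the limit the exceptions in fewer than 27 cells were Hoxa2 (14 cells), Hoxa4 (25 cells) and Hoxb5 (24 cells). A cell held between 14 and 30 of the 39 Hox genes, with a median of 22.

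**Figure D2:**
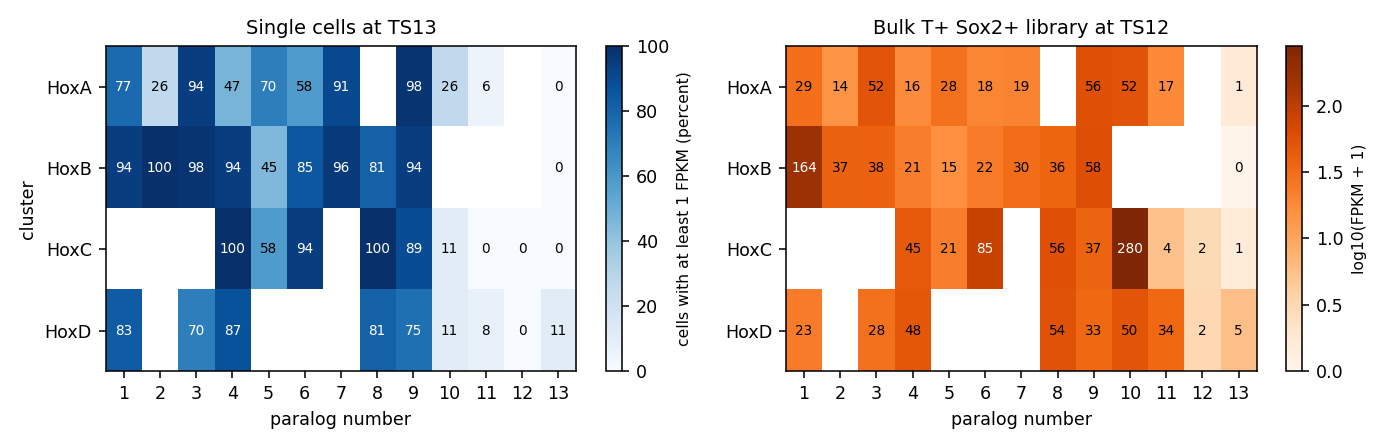
Hox genes by cluster (rows) and paralog number (columns): left, the percent of the 53 cells with at least 1 FPKM; right, the FPKM in the bulk T+ Sox2+ library of TS12, with colour on a log10 scale; blank squares are positions with no gene in the table. Detection in the cells is high up to number 9 and at most 26.4% from number 10 on, while the bulk library holds Hoxc10 at 280 FPKM.

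The bulk T+ Sox2+ library of TS12 held genes beyond that place. Hoxc10 stood at 280 FPKM there, the highest of the 39 Hox genes in that library, and Hoxa10 and Hoxd10 stood at 52.3 and 50.1 FPKM. In the bulk T+ library of TS13, the stage of the cells, Hoxc10 stood at 6.60, Hoxa10 at 10.6 and Hoxd10 at 4.03 FPKM. All 3 genes were lower in that library than in the TS12 library, and the tables were normalised separately. Stage, sorted fraction and kit all differ between the bulk libraries and cannot be told apart.

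Lists for other cell types were read to see what else the sort could hold. For endoderm, endothelium, surface ectoderm and neural crest, 0 genes were detected in 27 or more cells, beside 27% of all kept genes. For notochord and node, blood, germ cells, fibroblasts and differentiated neurons it was 1 gene each. Those genes were Rfx3 (38 cells), Lmo2 (40 cells), Kit (39 cells), Pdgfra (43 cells) and Stmn2 (40 cells), and each of them is also known outside the type it was listed for. The embryonic globins Hba-x, Hbb-y and Hbb-bh1 were listed at 0 in all 53 cells, while the bulk T+ Sox2+ library held them at 40.6, 44.1 and 25.1 FPKM and the bulk T+ library of TS13 at 493, 759 and 1037 FPKM. Noto, the node factor, was detected in 1 cell, and Sox17, the endoderm factor, in 3. Sox10 and Foxd3, which define neural crest, were listed at 0 in every cell, and Cdh5 of endothelium was detected in 1 cell.

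Of 15 genes listed for lateral and intermediate mesoderm, 4 were detected in 27 or more cells, a share close to the 27% of all kept genes. Foxf1, a forkhead factor of lateral mesoderm, was detected in 46 cells with a median of 40.9 FPKM, beside 3.29 FPKM in the bulk T+ Sox2+ library and 37.0 FPKM in the bulk T+ library of TS13. Hand1 was detected in 36 cells, Osr1 and Bmp4 in 34 each, Hand2 in 21 and Isl1 in 23. Gata4 and Lhx1 were detected in 1 cell each, and Pax8 and Wt1 in none. Among the 7 members with a mean of at least 5 FPKM, the median rank correlation over cells was 0.181, beside 0.0282 over all pairs of genes, and the strongest pair was Osr1 with Hand1 at 0.395. The mean log2(FPKM + 1) of the list had a rank correlation of 0.617 with genes detected, which was not taken out of these pairs. The summed level of the list ran from 0 to 501 FPKM with a median of 149, and the highest was in cell 93. The part that cells of lateral mesoderm play in this was not tested.

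**Figure D3:**
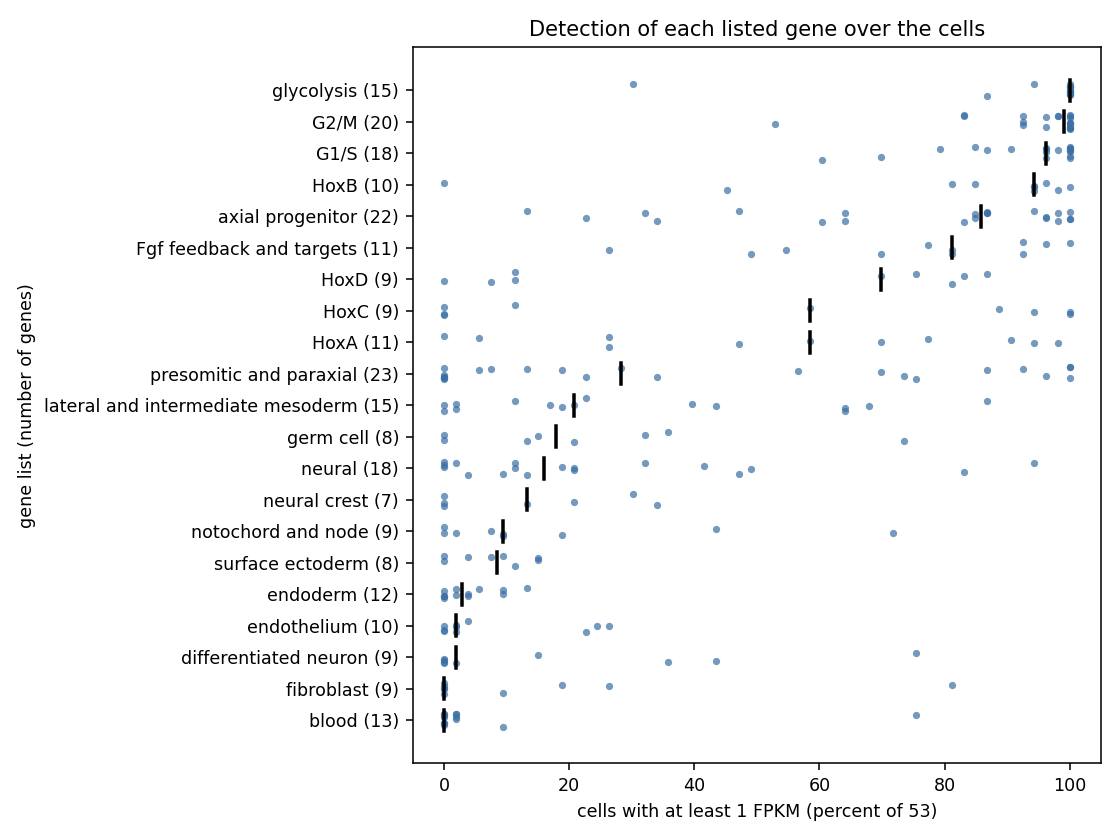
Percent of the 53 cells with at least 1 FPKM (horizontal axis) for each gene of 21 lists (rows, with the number of genes in brackets); points are genes, spread vertically at random, and black lines are list medians. Cell cycle, glycolysis, HoxB and axial progenitor genes lie to the right, the lists of other cell types have medians of at most 20.8% with single genes far to the right, and the presomitic list spans the whole range.

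Genes of the cell cycle and of glycolysis were frequent. All 18 genes of the G1/S list and all 20 of the G2/M list were detected in 27 or more cells, beside 27% of all kept genes and 69.2% of genes with at least 5 FPKM in the bulk T+ Sox2+ library. Pcna, the replication clamp, ran from 79.9 to 2053 FPKM with a median of 568, and Cks2, a cyclin-dependent kinase subunit, ran from 295 to 3229 FPKM with a median of 1488. Both sets were detected side by side: single cells held 12 to 18 of the G1/S genes and 15 to 20 of the G2/M genes. The median rank correlation within the lists was 0.0331 and 0.0368, beside 0.0282 over all gene pairs. Of 15 glycolysis genes, 12 were detected in every cell, beside 3.83% of all kept genes, and Ldha ran from 752 to 2439 FPKM with a median of 1641. Hk1 was detected in 16 cells and Hk2 in all 53. Of the immediate early genes, which respond quickly to stimuli, Fos was detected in 1 cell, Egr1 in 2, Jun in 6, and Fosb and Atf3 in none, while Ier2 was detected in 41 and Jund in 36.

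Of the pluripotency and epiblast genes, Sall4 and Lin28a were detected in all 53 cells, with medians of 178 and 22.3 FPKM, and Lin28b and Dnmt3b in 52. Pou5f1 (Oct4) was detected in 9 cells, and Zfp42 and Otx2 in none. Nanog was detected in 46 cells at a median of 2.74 FPKM, beside 0.333 FPKM in the bulk T+ Sox2+ library. Nanog has processed copies elsewhere in the genome, and how reads were divided among them is not given in the sources used here, so its level is uncertain.

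The 10 highest mean levels were as follows. Npm1, a nucleolar protein of ribosome assembly, had a mean of 6174 FPKM (lowest 4151, highest 10714) and Ppia, a prolyl isomerase, 4655 FPKM (lowest 2554, highest 6596). Of the next 8 genes, 5 encode ribosomal proteins (Rplp1, Rpl41, Rpl35, Rps19 and Rps12), and the others are Hspe1, a mitochondrial chaperonin, Ptma and the histone variant H2afz. All 10 were detected in every cell. Several have near-identical copies in the genome, so that their exact levels are uncertain.

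Spread over cells was measured as the squared coefficient of variation (CV) of FPKM against a smooth trend on the mean, for the 7645 genes with a mean of at least 5 FPKM and at least 1 FPKM in at least 6 cells. The squared CV was at least 2-fold above the trend for 1093 genes (14.3%) and at most 0.5 times it for 1101 (14.4%). Of 19 axial progenitor genes compared, 1 (Cdx4, 2.1-fold) was 2-fold above the trend and 5 (Sox2, Wnt5b, Evx1, Greb1 and Epha5) were at most 0.5 times it. The other 13 lay between, with T at 1.18 and Cyp26a1 at 1.69 times the trend. The median ratio to the trend was 0.855 for this list, 0.861 for the presomitic list, 0.854 for G2/M, 0.457 for HoxC, 0.343 for DNA methylation genes and 0.516 for glycolysis, beside 0.996 for all genes compared. Of 12 presomitic genes compared, Msgn1 (3.09-fold) and Mesp1 (2.39-fold) were at least 2-fold above the trend and Pcdh19 (0.333) was at most 0.5 times it. Of 6 neural genes compared, Fabp7 (4.85-fold) and Hes5 (2.24-fold) were above it and Ncam1 (0.262) and Nes (0.413) below. The trend was fitted on the mean alone, and the part that transcript length plays in these ratios was not tested.

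**Figure D4:**
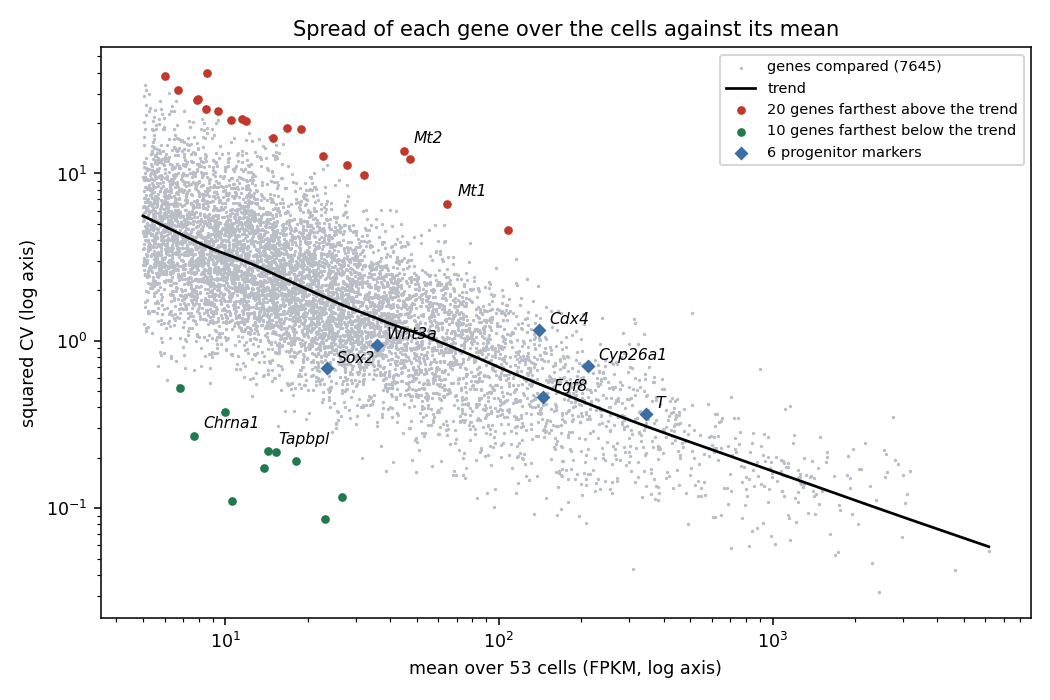
Squared CV over the 53 cells (vertical, log axis) against mean FPKM (horizontal, log axis) for 7645 genes; the line is the trend, red points the 20 genes farthest above it, green points the 10 farthest below it and blue diamonds the 6 progenitor markers. Sox2 lies below the trend and Cdx4 2.1-fold above it, and Mt1 and Mt2 stand out among genes of their mean.

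The 20 genes farthest above the trend were mostly genes with a very high level in 1 cell. Of these, 19 were detected in fewer than 27 cells, and the highest cell held between 22.0% and 86.6% of the gene's summed level, with a median of 58.9%. For Tmem9b, cell 12 stood at 394 FPKM and the next cell at 23.2. The exception in frequency was Elp5, a subunit of the elongator complex, detected in 41 cells and reaching 1622 FPKM. The others were 1300002E11Rik, Rilpl2, S100a1, B930003M22Rik, Cbr3, B3gnt2, Echdc2, Plekhf1, Acot1, Mapk13, Gmds, 2810408I11Rik, Cklf, Pex16, Ccdc51 and Cda, and the metallothionein genes Mt2 (11.5-fold above the trend) and Mt1 (6.96-fold). The highest cell was 1 of cells 90 to 95 for 12 of the 20 genes. In cells 1 to 47 alone, 16 of the 20 could be compared, all 16 were still at least 2-fold above the trend, and 10 of them were among the first 20.

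The metallothioneins, small proteins that bind zinc and copper, were detected in every one of cells 90 to 95. Mt1 stood at 758, 448, 526, 19.6, 215 and 691 FPKM in cells 90 to 95 in order of their numbers. Mt2 stood at 24.3, 1023, 643, 48.5, 104 and 174 FPKM in the same cells. Both genes were thus detected in all 6, while Mt2 in cells 90, 93 and 94 and Mt1 in cell 93 lay inside the range of the other cells. Among the 47 other cells Mt1 was detected in 15, up to 178 FPKM, and Mt2 in 8, up to 121 FPKM, and both together in 2. Over all 53 cells the genes were detected together in 8 cells, beside 5.55 for independent detection, with r = 0.46 and a rank correlation of 0.319. In cells 1 to 47 alone they were detected together in 2 cells, beside 2.55 for independent detection, with r = -0.08 and a rank correlation of -0.0939, so the joint detection rests on cells 90 to 95. In cells 1 to 47 alone the ratio to the trend was 2.65 for Mt1 and 2.53 for Mt2. The genes neighbour each other on chromosome 8, and the 250 bases before each RefSeq start (build GRCm38.p6, plus strand, chr8:94178839-94179088 for Mt1 and chr8:94172368-94172617 for Mt2) are shown because both genes were detected in all 6 of these cells. Capitals mark matches on either strand to TGCGCNC or TGCACNC, the core of the metal response element bound by Mtf1, of which Mt1 has 1 and Mt2 has 3:
Mt1: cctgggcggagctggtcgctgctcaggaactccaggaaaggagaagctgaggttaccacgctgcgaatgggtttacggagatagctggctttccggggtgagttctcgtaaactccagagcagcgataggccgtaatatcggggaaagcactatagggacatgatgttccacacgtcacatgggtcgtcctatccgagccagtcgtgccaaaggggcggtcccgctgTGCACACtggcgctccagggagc
Mt2: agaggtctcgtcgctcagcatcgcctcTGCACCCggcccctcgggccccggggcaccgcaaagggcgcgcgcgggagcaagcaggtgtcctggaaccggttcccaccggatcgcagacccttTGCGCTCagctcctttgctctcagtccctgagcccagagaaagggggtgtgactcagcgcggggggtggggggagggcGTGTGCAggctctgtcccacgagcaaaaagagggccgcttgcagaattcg
Of 32851 promoter windows of the same length, 21.4% hold at least 1 such match and 1.26% at least 3. A match describes the letters and not binding, and the number of matches depends on the start used for each window. No other start was tried, so the numbers for Mt1 and Mt2 are not compared.

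Some listed genes were detected less often in the same 6 cells. A rule chosen after the values were seen took a difference of more than 50 points in the percent of cells with detection. By it, 13 of 443 listed genes (2.93%) were detected more often in cells 1 to 47 than in cells 90 to 95. Over all kept genes this share was 1.5%. In the other direction it was 1 listed gene (Gdf1), beside 0.0833% of all kept genes. Only genes in more than 50% of cells 1 to 47 could be among the 13. All kept genes include 38.6% detected in no cell, so 1.5% is a low base for the listed genes. Tbx6 was detected in 45 of the 47 cells, with a median of 27.3 FPKM, and in 1 of the 6, where cell 91 stood at 6.08 FPKM. Lfng, a modifier of Notch, was detected in 30 of the 47 and 0 of the 6, and the protocadherin Pcdh19 in 37 and 0. Fgf3 was detected in 32 and 0, Fgf4 in 33 and 1, and Fgf15 in 42 and 2. Lmo2 was detected in 40 and 0, Foxf1 in 44 and 2, Pdgfra in 41 and 2, Snai1 in 36 and 1, and Tet1, Bax and Smad1 were the remaining members. Single cells of the 6 could still be high: Foxf1 stood at 124 FPKM in cell 93, Snai1 at 127 FPKM in cell 92 and Bax at 260 FPKM in cell 92. For Foxf1 and Snai1 these values were above the highest of the 47 cells, 105 and 114 FPKM.

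Other progenitor and mesodermal genes were mixed in these cells. T was detected in all 6 cells, from 151 to 621 FPKM with a median of 479, beside a median of 304 in the 47. Dll1 ran from 6.20 to 327 FPKM and Rspo3 from 161 to 581 FPKM in the 6, both detected in all of them. Cyp26a1 was detected in 5 of the 6 with a median of 9.50 FPKM, beside all of the 47 with a median of 173. The median of Fgf8 was 73.1 FPKM in the 6, beside 139 in the 47, and that of Cdx4 55.9 FPKM, beside 110 in the 47, with overlapping ranges. Msgn1 was detected in 1 of the 6, at 1.02 FPKM, and in 14 of the 47, and Nkx1-2 in 0 of the 6 and 12 of the 47. Genes detected were lower in these cells (4013 to 5389) than the median of every other block of numbers except cells 1 to 9, whose range of 4735 to 6081 overlaps them. The part that the lower number of genes detected plays in these differences was not tested.

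**Figure D5:**
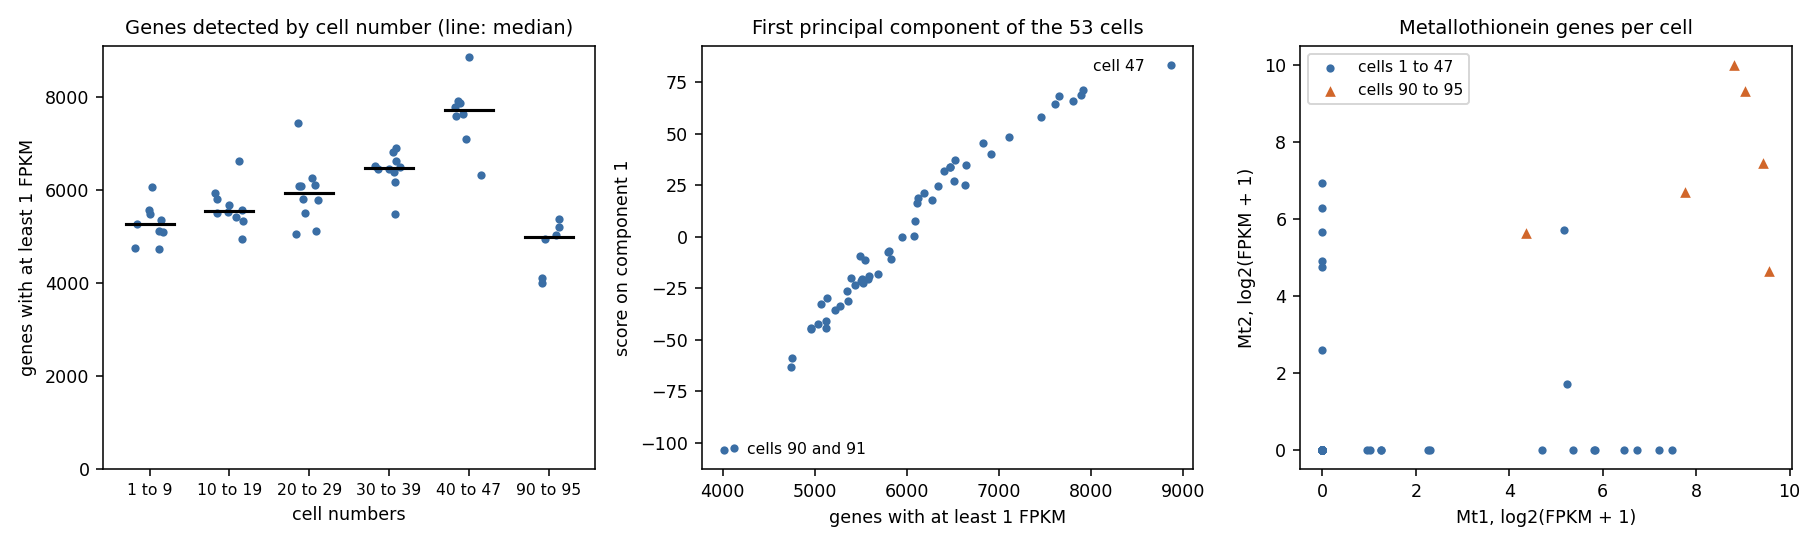
Left, genes with at least 1 FPKM per cell (vertical) by block of cell numbers, with a line at each median; middle, the score of each cell on the first principal component against its genes detected; right, Mt2 against Mt1 in each cell as log2(FPKM + 1), with triangles for cells 90 to 95. Genes detected follow the cell numbers from 1 to 47, the first component follows genes detected, and all 6 cells numbered 90 to 95 have both metallothioneins.

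The 10 genes farthest below the trend had an even, low level: Nlrp1a, Adarb2, Hmgb1-rs17, Chrna1, Synrg, Tapbpl, E030024N20Rik, Tor4a, Bcl9 and Phkg1. Bcl9 was detected in 50 cells, Phkg1 in 52 and the other 8 in all 53. Chrna1, a muscle acetylcholine receptor subunit, ran from 1.74 to 19.9 FPKM, beside 0.0596 FPKM in the bulk T+ Sox2+ library and 0.0635 in the bulk T+ library of TS13. Tapbpl ran from 5.95 to 38.4 FPKM, beside 0.207 and 0.108 FPKM. Both genes were thus detected in every cell and stood under 1 FPKM in both bulk libraries, which were made with other kits and normalised separately.

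The widest axis of variation over the cells was the number of genes detected. The first principal component of log2(FPKM + 1) over 7645 genes held 5.87% of the variance, and its scores had a rank correlation of 0.989 with the number of genes detected (r = 0.974 over 53 cells, 0.981 without the 2 cells farthest from the median). Within the 6 blocks of cell numbers the rank correlation ran from 0.891 to 1. The ends of the component were cells 90 and 91 on the one side and cells 47 and 46 on the other. Its largest loadings were on Fam216a, Nanp, Fam212a, Gemin7, Chrac1, Rpl30, Tdp2, Creld2, Cenpq and Lyrm2 at the end with more genes, and on Rps27rt, Mt2, Atp5e, Ndufs8, Mrps36, Lipt2, Ndufb10, Rps12, Arpc4 and Uqcr11 at the other. The second component held 2.93% and the third 2.81%. The ends of the second were cells 92 and 3 on the one side and cells 90 and 91 on the other. Those of the third were cells 92 and 90 on the one side and cells 11 and 8 on the other. No version of the components without cells 90 to 95 is given. On the second component, the genes with the largest loadings were Nop16, Ndufs5, Cox5a, Pnkd, Sac3d1, Smim4, 2410004B18Rik, Msantd4, Slc25a4 and Cox14 at one end. At the other end were A630089N07Rik, 4930470H14Rik, Timm50, Rfc4, 0610038B21Rik, Kcnq1ot1, Slc35b1, Tmem208, Ube2f and Hoxa6. None of the 6 progenitor markers was among these 40 loadings, but with 7645 genes most sets of 6 would be absent too. The scores had rank correlations with T of -0.171 on the first component and -0.281 on the second. With Sox2 these were 0.0871 and 0.308.

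Scores of the gene lists followed the same axis. The mean log2(FPKM + 1) of the axial progenitor list had a rank correlation of 0.736 with genes detected, the presomitic list 0.711, the neural list 0.536 and glycolysis 0.000564. The neural and presomitic scores had a rank correlation of 0.431 with each other, and 0.0839 when the ranks of genes detected were taken out. The axial and presomitic scores went from 0.503 to -0.0433 in the same way, and the G1/S and G2/M scores from 0.222 to -0.307. The axial progenitor and Fgf target scores went from 0.715 to 0.517. Neither value for the neural and presomitic scores can decide whether the 2 sets of genes oppose each other over the cells. The value of 0.431 includes what both scores share with genes detected. The median gene of the neural list was detected in only 8.5 cells. Among the 6 neural genes compared for spread, the median rank correlation was -0.0538, beside 0.0282 over all gene pairs. The neural score is thus a mean over genes that did not rise and fall together.

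Levels in the cells followed those in bulk RNA broadly. Across 11657 genes the mean over cells had a rank correlation of 0.812 with the bulk T+ Sox2+ library of TS12, and across 11601 genes 0.826 with the bulk T+ library of TS13; genes are not independent replicates. A gene at 5 FPKM or more in the bulk T+ Sox2+ library was detected in 27 or more cells in 69.2% of cases. The median gene at 20 to 50 FPKM in bulk was detected in 81.1% of cells, and the median gene above 100 FPKM in 100%. Of 443 listed genes, 333 were detected in a share of cells between the 10th and 90th percentile for their bulk level, 63 were above it and 47 below. Among those below it were Hoxc10, Msgn1, Cdx2, Tbx6, Nkx1-2, Snai1 and Vim, the last at 125 FPKM in bulk and detected in 41 cells. Among those above it were Cdx1, Foxf1, Osr1, Fst and Nanog.

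Some genes with clear bulk levels were detected in no cell. The 10 with the highest bulk T+ Sox2+ level among genes below 1 FPKM in every cell were Msi1 (73.1 FPKM in bulk), Amd2 (52.0), Hbb-y, Hba-x, Hbb-bh1, Cacng7 (21.3), Mark4 (14.4), Ppp1r37 (14.1), Dlg4 (10.1) and Sept5 (8.64). Msi1, an RNA-binding protein of neural progenitors, was listed at 0 in 51 of the 53 cells and at no more than 0.452 FPKM in the others. Amd2 is a near-identical copy of another gene, so its reads may have been counted elsewhere.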

How the data were processed

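The authors deposited FPKM, 1 value per gene symbol, in 1 table of 53 cells and 2 tables of 9 bulk libraries. Per the submitters' processing notes, TopHat2 2.1.0, Bowtie, Cufflinks 2.2.1 and Cuffnorm were used for the cells with build mm10. Of 23983 symbols, 2372 small RNA genes, numbered gene models and ribosomal protein pseudogenes were left out of counts and ranks. Detection was 1 FPKM or more; logs used a pseudocount of 1 FPKM. Python 3.11.15, pandas 2.3.3, scipy 1.17.1 and statsmodels 0.14.6 (lowess, fraction 0.3) were used. The spread and component steps were run on simulated data. The simulated cells were not made to differ in the number of genes detected, so those runs do not cover that feature of the data. No doublet caller was run on this small plate of cells. With 1 sample no test was made. The named genes are the 6 markers, the 20 genes farthest above and 10 farthest below the trend, the 10 highest means, the 10 largest loadings at each end of 2 components, ends of list detection orders and set pairs, and the 10 genes highest in bulk T+ Sox2+ and in no cell. Other listed genes are given as examples of their lists. Members and lists were chosen with earlier results of these data known.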

Additional observations from a re-analysis of the deposited data

How the results depend on the processing

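Most values kept their place under the alternatives tried. Of 64 alternative values for counts, shares and correlations over all genes, 58 stayed within the limits set, and 6 moved. The median number of genes per cell was 4761 at a detection threshold of 5 FPKM. In cells 90 to 95 alone, 1468 genes were detected in every cell, and Sox2, and T with Sox2, were detected in 66.7% of cells. The number of genes with a spread 2-fold above the trend was 486 with a minimum mean of 20 FPKM and 422 when spread was the SD of log2(FPKM + 1); the former compares fewer genes, 3818. On that log scale none of the first 20 genes was shared with those named, 3 of the 20 remained 2-fold above the trend, and 6 fell below it: Tmem9b at 0.760, B930003M22Rik at 0.718, Cbr3 at 0.806, B3gnt2 at 0.917, Plekhf1 at 0.933 and Pex16 at 0.998; the cause was not tested. Chosen after seeing the data, taking out genes detected turned the rank correlation of axial progenitor with presomitic scores to -0.0433 and of G1/S with G2/M scores to -0.307, and the rank correlation of Mt1 with Mt2 was -0.0939 in cells 1 to 47 alone. Of 36 list medians, 23 moved in cells 90 to 95 alone, 8 at 5 FPKM, 5 at 0.1 FPKM and 1 in cells 1 to 47 alone. Other pseudocounts were not run for rank correlations within lists, since they leave ranks as they are. No paired analysis was possible because the cells form 1 group. The depth of the cells is unknown, so a gene below 1 FPKM is not shown to be absent.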

Other observations

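Imprinted genes were in none of the lists. Igf2, a growth factor expressed from the paternal allele, was detected in all 53 cells, from 24.4 to 512 FPKM with a median of 141. H19, its maternally expressed neighbour, was detected in 8 cells and Rian in 14. Meg3, of the same cluster as Rian, was detected in all 53 cells with a median of 61.8 FPKM. Mest was detected in 28 cells with a median of 1.73 FPKM. H19 stood at 2.36 FPKM in the bulk T+ Sox2+ library of TS12 and at 578 FPKM in the bulk T+ library of TS13, and Rian at 39.4 and 110.0 FPKM.

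A rule chosen after the values were seen asked for under 1 FPKM in all 5 bulk WT libraries of T+, T+ Sox2+ and Sox2+ cells. Of 5832 kept genes detected in 27 or more cells, 21 met it. Besides Chrna1, Tapbpl and Phkg1 they include Slc7a14, detected in all 53 cells from 3.19 to 60.9 FPKM, and Tyr, the tyrosinase of pigment cells, detected in 50 cells with a median of 4.88 FPKM. Cyp2e1, a liver enzyme, was detected in 45 cells with a median of 3.25 FPKM. Ptcra, a receptor chain of thymocytes, was detected in 36 cells, up to 60.1 FPKM. Cells and bulk libraries were made with different kits and normalised separately. How reads were assigned to these 21 genes is not given in the sources used here, so their expression in the cells is uncertain.

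Rps27 and its near-identical copy Rps27rt were spread widely, from 0.372 to 3072 FPKM and from 0.473 to 2262 FPKM, and how reads were divided between them is not given in the sources used here.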
